A study of Rattus norvegicus with 8 samples.

Results

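The genes described here encode the voltage-gated sodium and calcium channels with their auxiliary subunits, the pacemaker channels of the HCN family, the TRP cation channels of the canonical (Trpc), melastatin (Trpm) and vanilloid (Trpv) classes, and the CLC chloride channels and exchangers. They were chosen by a rule on gene symbols, with earlier results of these data known. The rule took every gene whose symbol begins with Scn and a digit, Cacna, Cacnb, Cacng, Hcn, Trpc, Trpm, Trpv or Clcn. It left out 1 calcium channel γ subunit gene. This gave 61 of the 14217 genes on the array, read by 87 probe sets. One gene caught by the rule, Trpc4ap, encodes a protein that binds a TRP channel and is not itself a channel. The arrays compared 2 populations of cells that were flow-sorted out of the whole brain of rats at postnatal day 7. A2B5+ cells carry a ganglioside epitope of glial progenitors that some neurons share, and the labels call them oligodendrocyte progenitors. GalC+ cells carry galactocerebroside, a lipid of oligodendrocytes and myelin, and the labels call them oligodendrocytes. Each population had 4 biological replicates, and each replicate was a pooled litter of 10 pups hybridised to 1 Affymetrix array; no genotype, strain or treatment was named for either.

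Voltage-gated sodium and calcium channels open when the membrane is depolarised. A large pore-forming α subunit carries the current, and smaller partners set its gating and its delivery to the surface: β subunits for sodium channels, and α2δ, β and γ subunits for calcium channels. TRP channels pass cations in response to chemical, thermal, osmotic or mechanical signals, HCN channels open on hyperpolarisation, and CLC proteins either conduct chloride at the plasma membrane or exchange chloride for protons in endosomes and lysosomes. Oligodendrocyte progenitors are known to carry voltage-gated sodium and calcium currents that become smaller as the cells mature, and neurons carry the same channels at high density.

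The deposited numbers are signal ratios, scaled so that every probe set has a median of 1 over the 8 arrays. They carry differences between arrays but no level, and 1 gene cannot be ranked against another by abundance. The median ratio of an array lay between 0.979 and 1.03. Fold changes are log2 differences between the GalC+ and A2B5+ means, tested with limma and adjusted over all 14217 genes with a threshold of 0.05. Of the markers of myelinating oligodendrocytes, 17 of 17 were higher in GalC+, beside 18.2% of all genes. Of 12 progenitor markers 5 were lower, beside 17.5% of all genes, and 7 did not pass. None was called higher (1 was higher at an unadjusted p under 0.05). The marker lists were chosen with earlier results of these data known, so they are no independent check of the sort. In sorted populations such as these, fewer cells of a type and less RNA per cell cannot be told apart.

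Channel genes mostly differed little between the populations, and those that passed the test were lower in GalC+ more often than higher. Of the 61 genes, 13 were lower in GalC+, 6 were higher and 42 did not pass. The lower genes were the sodium channel genes Scn1a, Scn2a, Scn3a, Scn2b and Scn3b, the calcium channel genes Cacna1b, Cacna2d1, Cacna2d3, Cacnb1, Cacnb3 and Cacng2, and the TRP channel genes Trpc2 and Trpv1. The higher genes were Trpv4, Clcn4, Clcn6, Clcn3, Trpc1 and Cacna1f. The share of channel genes called was 31.1%, beside 35.7% of all genes tested. By direction, 21.3% of the channel genes were lower beside 17.5% of all genes, and 9.84% were higher beside 18.2%. The median log2 fold change of the channel genes was 0.04, the same to 2 decimals as over all genes, and the median size of the change without its sign was 0.18 against 0.22. Among the 19 genes that passed, changes reached 2-fold in 2, Trpv4 and Cacna2d3, and 1.5-fold in 12. In 18 genes the populations were fully separated over the 8 arrays, 12 with lower and 6 with higher values in GalC+, which is 29.5% of the channel genes beside 36.2% of all genes.

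**Figure D1:**
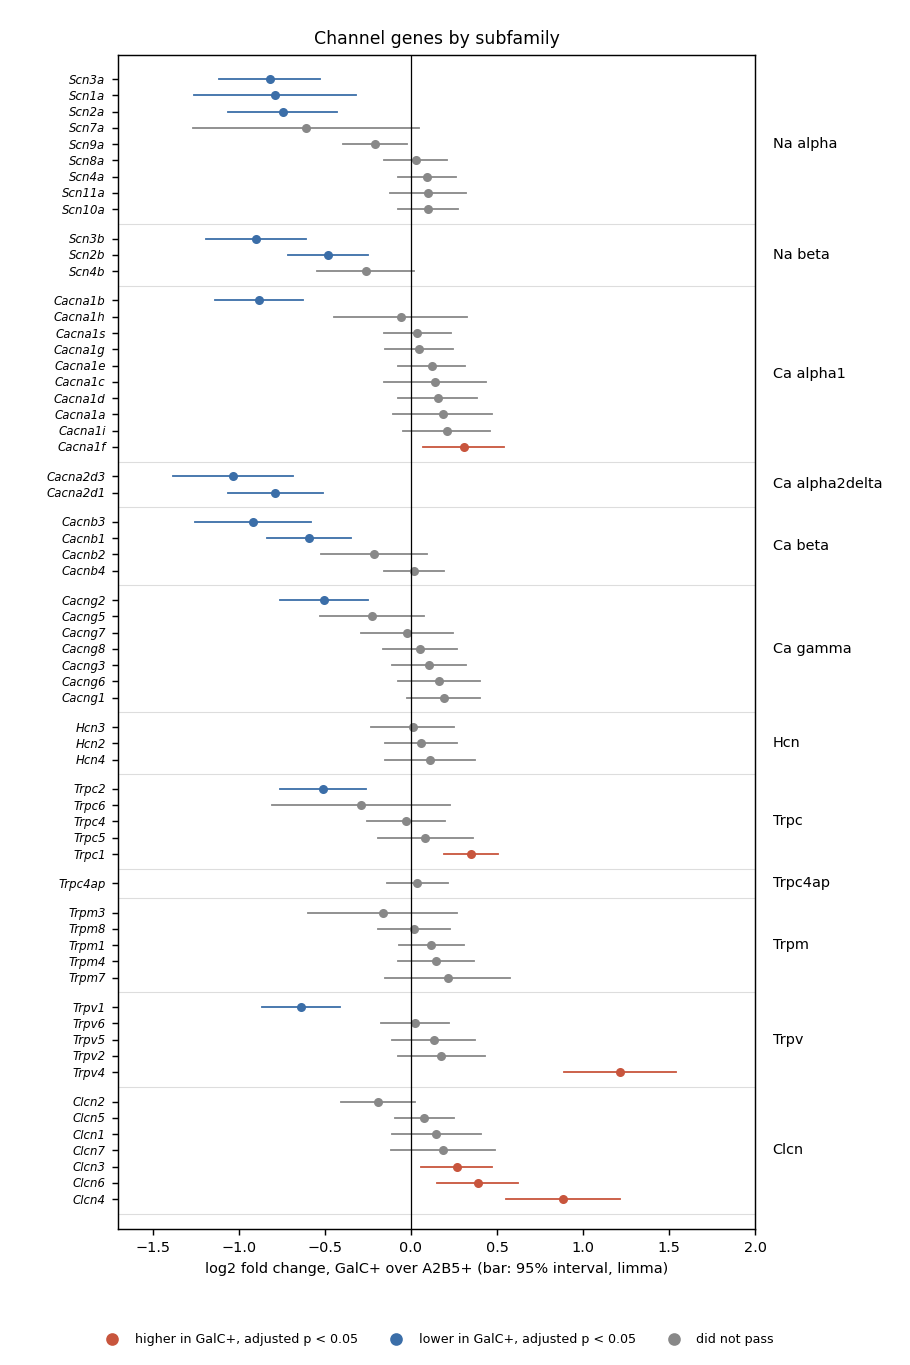
Log2 fold change of GalC+ over A2B5+ (horizontal axis) for each of the 61 channel genes, grouped by subfamily, with its 95% interval from limma; red points are higher and blue points lower in GalC+ at an adjusted p under 0.05, grey points did not pass. Most intervals reach 0, the largest fall is that of Cacna2d3 (-1.04) and the largest rise that of Trpv4 (1.21).

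The called genes shown here differ widely in the DNA before their start sites. RefSeq promoter sequences (assembly GRCr8) were found for 49 of the 61 genes. The 250 bases before the start are shown for the 2 genes with the largest rise, Trpv4 (chr12:47598938-47599187, plus strand) and Clcn4 (chrX:27290689-27290938, plus strand), and for 2 genes that fell, Cacna2d3 (chr16:4918900-4919149, minus strand), which had the largest fall, and Scn3a (chr3:70666199-70666448, minus strand). Scn3a fell by less than Cacnb3, Scn3b and Cacna1b, which are not shown. Capitals mark the GC box GGGCGG on either strand.

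Trpv4: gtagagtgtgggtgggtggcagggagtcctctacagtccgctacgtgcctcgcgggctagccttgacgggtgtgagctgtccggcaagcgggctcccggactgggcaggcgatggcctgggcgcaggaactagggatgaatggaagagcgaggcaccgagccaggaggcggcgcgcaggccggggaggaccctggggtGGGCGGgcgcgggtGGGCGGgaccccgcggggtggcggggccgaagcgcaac
Clcn4: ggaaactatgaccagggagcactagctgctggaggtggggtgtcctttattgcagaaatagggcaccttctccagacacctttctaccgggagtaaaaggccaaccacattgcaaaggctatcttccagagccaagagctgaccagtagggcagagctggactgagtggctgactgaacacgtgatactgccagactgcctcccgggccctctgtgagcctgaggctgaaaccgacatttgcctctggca
Cacna2d3: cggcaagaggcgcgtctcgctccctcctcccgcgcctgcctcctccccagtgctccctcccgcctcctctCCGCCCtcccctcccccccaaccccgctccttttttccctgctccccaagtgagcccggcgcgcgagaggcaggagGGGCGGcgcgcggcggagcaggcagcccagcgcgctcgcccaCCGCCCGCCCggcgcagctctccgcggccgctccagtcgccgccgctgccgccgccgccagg
Scn3a: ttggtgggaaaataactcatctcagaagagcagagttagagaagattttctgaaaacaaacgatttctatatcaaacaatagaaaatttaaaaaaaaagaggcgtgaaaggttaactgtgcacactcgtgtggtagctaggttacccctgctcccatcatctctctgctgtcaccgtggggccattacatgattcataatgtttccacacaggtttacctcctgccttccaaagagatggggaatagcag

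Among the 4 promoters shown, 1 in each direction was rich in CpG and 1 was poor, a balance that depends on the genes chosen. Trpv4, which rose, had 25 CpG and 2 GC boxes in the 250 bases, whereas Clcn4, which also rose, had 4 CpG and 0 GC boxes. Cacna2d3, which fell, had 34 CpG and 4 GC boxes, and Scn3a, which fell too, had 4 CpG and 0 GC boxes. The median number of CpG was 14.5 in promoters of genes higher in GalC+ and 17 in those of lower genes. It was 10 in promoters of genes that were not called and 5 over all promoters. All promoters here are those of 27457 genes, a wider set than the 14217 genes on the array. Over all member promoters, 22 of 55 (40.0%) held GGGCGG on either strand, beside 30.5% of the 33469 promoters in the table. It was found in 6 of 12 promoters of genes that were lower in GalC+ and in 3 of 6 promoters of genes that were higher (Clcn6, Trpv4 and Cacna1f). Promoters of genes that were not called held it in 13 of 37 (35.1%). The TATA box TATAAA was found in 5 of 55 (9.09%), against 12.9% of all promoters. The sites TTCAGCACC and GGACAGCGC from either end of RE1, the element bound by the neuronal gene repressor REST, were searched on both strands as well. TTCAGCACC stood in 1 member promoter, that of Cacng3, and in 0.305% of all promoters, and GGACAGCGC in 0 member promoters and in 0.338% of all. These counts describe letters in a window of 250 bases and say nothing of binding.

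Sodium channel α subunits, the pores that carry the upstroke of the action potential, passed in 3 of 9 genes measured. Scn1a, Scn2a and Scn3a were lower in GalC+ and 0 were higher (0 also at an unadjusted p under 0.05). Scn3a, the main pore of embryonic and early postnatal brain, had ratios of 1.18, 1.26, 1.22 and 1.2 in A2B5+ replicates 1 to 4, and of 0.819, 0.526, 0.671 and 0.778 in GalC+. The 4 A2B5+ arrays lay close together, well above all GalC+ arrays. GalC+ cells had 1.76 times less (log2 fold change -0.82 ± 0.13 SE, n = 4 and 4, limma adjusted p = 0.00113).

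Scn2a, a pore of axon initial segments and unmyelinated axons, had ratios of 1.26, 1.76, 1.45 and 1.09 in A2B5+ and 0.820, 0.803, 0.738 and 0.911 in GalC+. The groups did not overlap, and A2B5+ replicate 2 stood highest. The fall was 1.68-fold (log2 fold change -0.75 ± 0.14 SE, limma adjusted p = 0.00288). Scn1a, the pore that inhibitory interneurons depend on, had ratios of 1.29, 1.39, 0.986 and 1.84 in A2B5+ and 0.897, 0.630, 0.635 and 1.01 in GalC+. It was the only called channel gene whose groups overlapped, with A2B5+ replicate 3 just below GalC+ replicate 4. Its log2 fold change was -0.79 ± 0.21 SE (limma adjusted p = 0.0153, or 0.0624 when no spread was borrowed from other genes).

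Scn3a, Scn2a, Scn1a, Scn9a and Scn7a lie along chromosome 3 of the rat, where Scn3a and Scn2a are direct neighbours, as are Scn1a and Scn9a, and Scn9a and Scn7a. The called genes were thus 3 of these 5. Scn9a, a pore of sensory and sympathetic neurons, did not pass (log2 fold change -0.21, 95% interval -0.40 to -0.02, adjusted p = 0.0802), and it passed when arrays were centred on their medians (adjusted p = 0.0421) or quantile normalised (0.0474), and without GalC+ replicate 4 (0.0356). Scn7a, a sodium-sensing relative found in glia, had ratios of 1.18, 1.29, 0.797 and 1.33 in A2B5+ and 1.32, 0.541, 0.5 and 0.823 in GalC+. GalC+ replicate 1 stood with the A2B5+ arrays, and the log2 fold change of -0.61 did not pass (95% interval -1.27 to 0.04, adjusted p = 0.135). With the replicate number as a block its adjusted p was 0.0345, and without GalC+ replicate 1 it was 0.0155 at a log2 fold change of -0.89. Scn8a, a further brain α subunit and the main one of nodes of Ranvier, differed by 0.03 on the log2 scale (95% interval -0.16 to 0.21). The muscle gene Scn4a (0.09) and the sensory neuron genes Scn10a (0.10) and Scn11a (0.10) had intervals within 0.5 of 0 on either side.

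The sodium channel β subunits, single-pass proteins that modulate the pore and act in cell adhesion, had negative log2 fold changes in all 3 genes measured, of which 2 passed. Scn3b had ratios of 1.38, 1.77, 1.17 and 1.29 in A2B5+ and of 0.784, 0.826, 0.665 and 0.708 in GalC+. The groups were far apart on every array, and both of its probe sets were called lower, the second at -0.81. Its fall was 1.87-fold (log2 fold change -0.90 ± 0.13 SE, limma adjusted p = 6.9e-04). Scn2b had ratios of 1.31, 1.16, 1.12 and 1.06 in A2B5+ and 0.83, 0.717, 0.85 and 0.939 in GalC+. All A2B5+ arrays exceeded all GalC+ arrays, but a further probe set of the gene had a log2 fold change of 0.05, and the mean of both was -0.22. From the probe set used, the log2 fold change was -0.48 ± 0.10 SE (limma adjusted p = 0.00556). Scn4b, which neighbours Scn2b on chromosome 8, had a log2 fold change of -0.26 and did not pass (95% interval -0.55 to 0.02), although it passed without GalC+ replicate 3 (-0.36, adjusted p = 0.0461).

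Calcium channel α1 subunits, the pores of L, P/Q, N, R and T-type currents, mostly did not differ beyond their error. Of 10 measured, 1 was lower and 1 higher. Cacna1b, the pore of N-type channels that trigger transmitter release, had ratios of 1.2, 1.37, 1.40 and 1.36 in A2B5+ and of 0.742, 0.780, 0.581 and 0.805 in GalC+. No value overlapped, and GalC+ replicate 3 was lowest. The fall was 1.84-fold (log2 fold change -0.88 ± 0.11 SE, limma adjusted p = 3.93e-04), but the second probe set of the gene differed by -0.01, and the mean of both was -0.45 (adjusted p = 0.00312).

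Cacna1f, an L-type pore known from photoreceptors, had ratios of 0.97, 0.761, 0.973 and 0.878 in A2B5+ and of 1.03, 1.22, 1.03 and 1.14 in GalC+. The gap between the populations was narrow, with A2B5+ replicates 1 and 3 just under GalC+ replicates 1 and 3. Its rise was 1.24-fold (log2 fold change 0.31 ± 0.10 SE, limma adjusted p = 0.0450). Leaving out each array in turn, 7 of 8 fits lost this call, all but that without A2B5+ replicate 3, with adjusted p values from 0.0514 to 0.116 in those 7, and with the replicate number as a block (adjusted p = 0.0741), the gene's own spread (0.0707) or array weights (0.0570).

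The main L-type pores of brain, Cacna1c (0.14, 95% interval -0.16 to 0.44) and Cacna1d (0.15, -0.07 to 0.38), did not pass on the log2 scale. A second probe set of Cacna1c was called lower (-0.31, adjusted p = 0.0247 over all probe sets), so that its direction depends on the probe set read. Cacna1a, the P/Q-type pore, was measured by 5 probe sets, none of which passed, with log2 fold changes from -0.05 to 0.18. The R-type gene Cacna1e (0.12), the T-type genes Cacna1g (0.04), Cacna1h (-0.06) and Cacna1i (0.21), and the skeletal muscle gene Cacna1s (0.04) did not pass either, with 95% intervals between -0.45 and 0.46.

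The α2δ subunits, extracellular proteins that carry calcium channels to the surface and bind gabapentin in some forms, had lower values in GalC+ for both genes measured. Cacna2d3 had ratios of 1.26, 1.56, 1.21 and 1.40 in A2B5+ and of 0.773, 0.495, 0.621 and 0.795 in GalC+. Replicate 2 was the highest A2B5+ array and the lowest GalC+ array. At 2.05-fold, this was the largest fall among the channel genes (log2 fold change -1.04 ± 0.16 SE, limma adjusted p = 8.11e-04). Cacna2d1 had ratios of 1.12, 1.29, 1.46 and 1.24 in A2B5+ and of 0.775, 0.667, 0.883 and 0.642 in GalC+. The lowest A2B5+ array still exceeded the highest GalC+ array. The gene was 1.73-fold lower (log2 fold change -0.79 ± 0.12 SE, limma adjusted p = 9.79e-04).

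Of the 4 intracellular β subunits, which bind the α1 pore and promote its export to the membrane, 2 were lower in GalC+. For Cacnb3 the ratios were 1.43, 1.91, 1.12 and 1.43 in A2B5+ and 0.717, 0.787, 0.697 and 0.875 in GalC+. A2B5+ replicate 2 was highest, and the groups did not overlap. The fall was 1.89-fold (log2 fold change -0.92 ± 0.15 SE, limma adjusted p = 0.00132). Cacnb1 had ratios of 1.25, 1.40, 1.09 and 1.16 in A2B5+ and of 0.868, 0.728, 0.748 and 0.906 in GalC+. These values did not overlap, and the log2 fold change was -0.59 ± 0.11 SE (limma adjusted p = 0.00230). Its second probe set showed -0.10 and did not pass. Cacnb2 (-0.21, 95% interval -0.52 to 0.09) and Cacnb4 (0.02, -0.16 to 0.19) did not pass.

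The γ subunits comprise muscle calcium channel subunits and proteins that traffic AMPA-type glutamate receptors. Cacng2, or stargazin, which anchors AMPA receptors at synapses, was the only one of 7 that passed. Its ratios were 1.05, 1.06, 1.23 and 1.31 in A2B5+ and 0.95, 0.846, 0.717 and 0.769 in GalC+. All A2B5+ values exceeded all GalC+ values, by a narrow gap. The log2 fold change was -0.51 ± 0.11 SE (limma adjusted p = 0.00707), but the other probe set leaned upward (0.20) and averaging the probe sets gave -0.15, which missed the threshold (adjusted p = 0.199). The other AMPA receptor partners Cacng3 (0.10), Cacng5 (-0.23), Cacng7 (-0.02) and Cacng8 (0.05) and the muscle genes Cacng1 (0.19) and Cacng6 (0.16) did not pass on the log2 scale, with 95% intervals between -0.53 and 0.40.

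None of the 3 HCN genes measured, whose channels pace rhythmic firing, passed the limma test, nor did any at an unadjusted p under 0.05. Hcn4, with the largest difference, had ratios of 0.968, 0.910, 1.22 and 0.921 in A2B5+ and of 0.959, 1.17, 1.03 and 1.18 in GalC+. The highest A2B5+ array stood above all GalC+ arrays. Its log2 fold change was 0.11 (95% interval -0.15 to 0.37), and those of Hcn2 and Hcn3 were 0.06 and 0.01.

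Among the 5 canonical TRP channels, Trpc1 was higher and Trpc2 lower in GalC+. Trpc1, a subunit of calcium-permeable channels that assemble with other Trpc proteins, had ratios of 0.884, 0.888, 0.894 and 0.901 in A2B5+ and of 1.10, 1.18, 1.18 and 1.10 in GalC+. Replicates were tightly grouped and far from overlapping. The rise was small, 1.27-fold (log2 fold change 0.35 ± 0.07 SE, limma adjusted p = 0.00367), and it was kept in all 8 fits that left out 1 array. Trpc2, a channel of pheromone-sensing neurons in rodents, had ratios of 1.11, 1.41, 1.07 and 1.11 in A2B5+ and of 0.797, 0.828, 0.735 and 0.932 in GalC+. A2B5+ replicate 2 stood above the other A2B5+ arrays, and no values overlapped. Its log2 fold change was -0.51 ± 0.11 SE (limma adjusted p = 0.00599), whereas its second probe set showed 0.22 and averaging them gave -0.14, short of the threshold (adjusted p = 0.198). Trpc4 (-0.03), Trpc5 (0.08) and Trpc6 (-0.29) did not pass, and the interval of Trpc6 was wide (-0.80 to 0.23 on the log2 scale). Trpc4ap differed by 0.04 (95% interval -0.14 to 0.21).

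No melastatin channel passed of the 5 measured (limma, with 0 also at an unadjusted p under 0.05). Trpm7, a channel fused to a kinase that takes part in magnesium balance, had ratios of 0.876, 0.868, 1.03 and 1.03 in A2B5+ and of 0.969, 1.08, 1.55 and 0.899 in GalC+. The groups overlapped, and GalC+ replicate 3 stood highest. The log2 fold change was 0.21 (95% interval -0.15 to 0.57), but 0.05 without GalC+ replicate 3 and -0.03 on its second probe set. The cold receptor Trpm8 (0.02), the calcium-activated channel Trpm4 (0.14), Trpm1 (0.12) and the steroid-activated channel Trpm3 (-0.16) lay closer to 0.

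The vanilloid class held the largest rise among all 61 genes. Trpv4, a calcium-permeable channel opened by cell swelling, stretch and warmth, had ratios of 0.738, 0.470, 0.679 and 0.557 in A2B5+ and of 1.53, 1.53, 1.26 and 1.29 in GalC+. The highest A2B5+ array was far below the lowest GalC+ array. GalC+ cells had 2.32 times more (log2 fold change 1.21 ± 0.14 SE, 95% interval 0.89 to 1.54, limma adjusted p = 2.54e-04), read from its only probe set. Trpv1, the capsaicin receptor of pain neurons, had ratios of 1.35, 1.10, 1.40 and 1.29 in A2B5+ and of 0.863, 0.761, 0.767 and 0.9 in GalC+. The populations did not overlap on this probe set. Here the log2 fold change was -0.64 ± 0.10 SE (limma adjusted p = 0.00105), but the other 2 probe sets of the gene showed 0.13 each, and the mean of all 3, -0.13, did not pass (adjusted p = 0.184). Trpv2 (0.18), Trpv5 (0.13) and Trpv6 (0.02) did not pass, with 95% intervals between -0.18 and 0.43.

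Of the 7 CLC genes, 3 were higher in GalC+ (42.9%, beside 18.2% of all genes) and 0 lower (0 also at an unadjusted p under 0.05). The 3 were among the 5 measured genes of chloride-proton exchangers in endosomes and lysosomes. With the probe set of smallest variance, Clcn4, Clcn6 and Clcn3 all lost the call (limma adjusted p = 0.114, 0.819 and 0.0848). Clcn4, an exchanger of endosomes, had ratios of 0.716, 0.823, 0.746 and 0.833 in A2B5+ and of 1.17, 1.41, 1.97 and 1.31 in GalC+. All GalC+ arrays were higher, and GalC+ replicate 3 most. The gene was 1.84-fold higher (log2 fold change 0.88 ± 0.15 SE, limma adjusted p = 0.00148), while a second probe set leaned the same way at 0.19 and did not pass.

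Clcn6, an exchanger of late endosomes of neurons, had ratios of 0.958, 0.848, 0.826 and 0.861 in A2B5+ and of 1.13, 1.37, 1.04 and 1.05 in GalC+. The groups did not overlap, and GalC+ replicate 2 stood highest. Its log2 fold change was 0.39 ± 0.10 SE (limma adjusted p = 0.0164), and with the second probe set, at 0.04, the mean of 0.21 did not pass (adjusted p = 0.0843). Clcn3, whose product acidifies endosomes and synaptic vesicles, had ratios of 0.997, 0.912, 0.792 and 0.913 in A2B5+ and of 1.12, 1.15, 1.06 and 1.00 in GalC+. A2B5+ replicate 1 almost reached GalC+ replicate 4. The log2 fold change was 0.27 ± 0.09 SE (limma adjusted p = 0.0471), close to the threshold, and 6 of 8 fits with an array left out lost the call, all but those without A2B5+ replicate 1 and without GalC+ replicate 4 (adjusted p from 0.0738 to 0.114 in those 6). It was also lost with quantile normalization (adjusted p = 0.0909), median centring (0.0749), array weights (0.0733) and the gene's own spread (0.0542), and kept with the mean of its probe sets (0.00855). Its 4 probe sets lay close together, from 0.22 to 0.29, and 3 of them passed over all probe sets. The lysosomal exchanger Clcn7 (0.19, 95% interval -0.11 to 0.49), the endosomal exchanger Clcn5 (0.08, -0.09 to 0.25), the glial and neuronal chloride channel Clcn2 (-0.19, -0.41 to 0.03) and the muscle channel Clcn1 (0.15, -0.11 to 0.40) did not pass on the log2 scale.

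The counts by role are given as a description, since this grouping was made after the values were seen and the difference between roles was not tested. Of the 16 genes for β, α2δ and γ subunits of sodium and calcium channels, 7 were lower in GalC+ and 0 higher (limma, with 0 higher also at an unadjusted p under 0.05), at a median log2 fold change of -0.25, where 17.5% of all genes were lower. Among the 19 genes for their pores, 4 were lower (21.1%, beside 17.5% of all genes) and 1 higher (5.26%, beside 18.2%), at a median of 0.04. With the probe set of smallest variance in place of the largest, 4 of 16 auxiliary genes and 4 of 19 pore genes were lower. The share of all genes lower in that setting is not given here. The 15 TRP channels had 2 higher and 2 lower (13.3% each, beside 18.2% and 17.5% of all genes), at a median of 0.08. Among the 42 genes that did not pass, 35 had a 95% interval within 0.5 of 0 on the log2 scale. The widest intervals belonged to Scn7a, Trpc6, Trpm3 and Cacna1h.

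**Figure D2:**
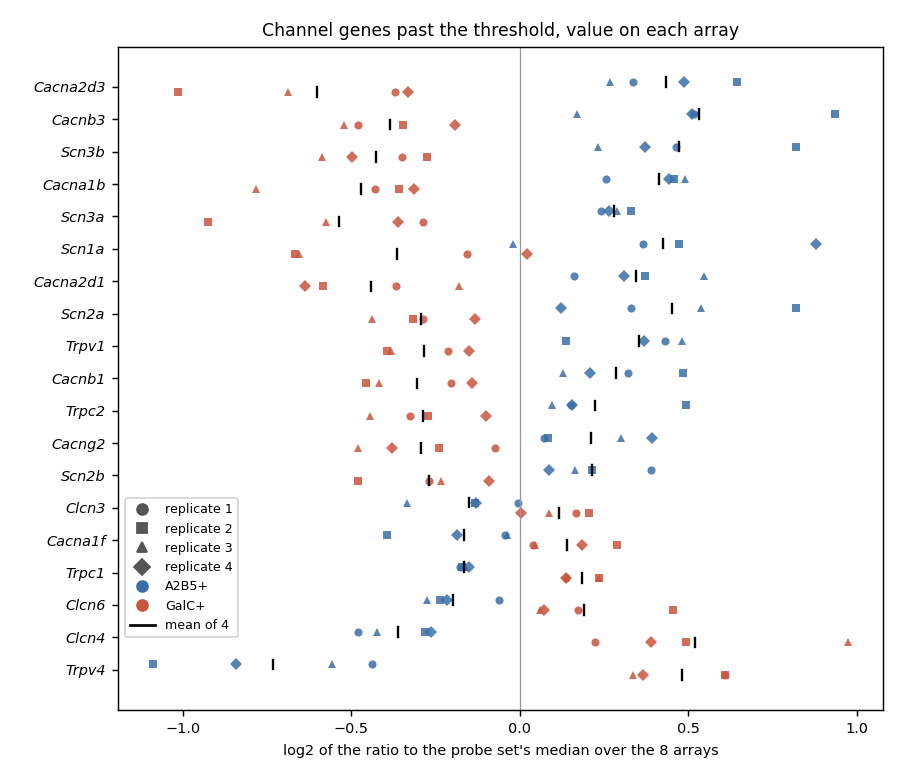
Log2 of the ratio to each probe set's median over the 8 arrays (horizontal axis) for the 19 channel genes that passed, from the largest fall to the largest rise; each point is 1 array, blue for A2B5+ and red for GalC+, its shape gives the replicate and a black bar the mean of 4. Only Scn1a has overlapping populations.

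The arrays at the edge of a population recurred among the 13 lower genes. A2B5+ replicate 2 had the highest A2B5+ value in 7 of the 13 genes. GalC+ replicate 2 or 3 had the lowest GalC+ value in 12 of the 13, and GalC+ replicate 4 the highest in 9. The same counts were not made over all genes lower in GalC+, so they cannot be called particular to the channel genes. Neuron markers had a mean log2 ratio over 25 genes of 0.71 on A2B5+ replicate 2, the highest of the A2B5+ arrays, and of -0.68, -1.16, -1.27 and -0.43 on GalC+ replicates 1 to 4. Of those 25 markers, 18 were lower in GalC+ and 1 higher, beside 17.5% and 18.2% of all genes. The list mean ranged from 0.38 to 0.71 in A2B5+ and from -1.27 to -0.43 in GalC+. Levels cannot be read from these ratios, so they do not show whether neuronal RNA was present or absent on an array. The progenitor markers had list means from 0.07 to 0.30 in A2B5+, where replicate 1 was highest. On GalC+ replicates 1 to 4 they had -0.24, -0.54, -0.73 and -0.10, the same order of arrays as the neuron markers. The markers of myelinating oligodendrocytes had the opposite order in GalC+, and their lowest A2B5+ mean was on replicate 2 (-2.92). By the order of the GalC+ arrays, neuron and progenitor markers cannot be told apart. Neurons and progenitors both express sodium and calcium channels, and the part of either in the 13 lower genes was not tested.

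**Figure D3:**
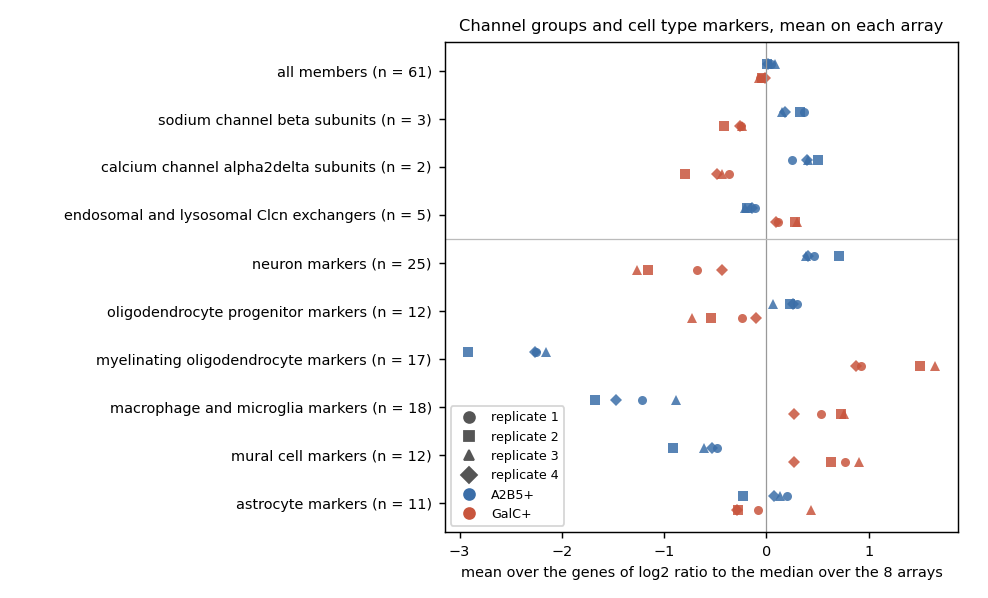
Mean over genes of the log2 ratio to the median over the 8 arrays (horizontal axis) for channel groups (above the line) and cell type markers (below it); each point is 1 array, coloured by population and shaped by replicate. The 61 channel genes lie near 0 on every array (-0.07 to 0.09), while neuron markers reach -1.27 on GalC+ replicate 3.

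Macrophage and microglia markers were higher in GalC+ in 16 of 18 genes, beside 18.2% of all genes. Their list means ran from -1.68 to -0.88 in A2B5+ and from 0.27 to 0.76 in GalC+. Mural cell markers were higher in 10 of 12, with list means from -0.91 to -0.48 and from 0.27 to 0.90, and 8 of 10 fibroblast markers were higher and 1, Pdgfra, lower. These stand beside the rises of Trpv4, Clcn4, Clcn6, Clcn3, Trpc1 and Cacna1f, and their part in them was not tested. Astrocyte (11 genes) and endothelial markers (10 genes) had 0 calls in either direction (at an unadjusted p under 0.05, 1 astrocyte marker was lower and no endothelial one passed), and 5 of 5 ependymal markers were lower.

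Where a gene had several probe sets, the one with the largest variance was read, and probe sets often disagreed in size. Of the 19 called genes, 9 had 1 probe set and 10 had several. In 8 of those 10 only the probe set used was called, while both passed for Scn3b and 3 of 4 for Clcn3. In 4 genes, Trpv1, Trpc2, Cacng2 and Scn2b, another probe set had the opposite sign, and in 0 was it called in the opposite direction. Over all 87 probe sets, 23 were called, 15 lower and 8 higher (26.4%, beside 26.8% of all probe sets on the array). More than 1 probe set thus passed only for Scn3b and Clcn3. For the 9 genes with 1 probe set, agreement could not be checked. These were Scn1a, Scn2a, Scn3a, Cacna2d1, Cacna2d3, Cacnb3, Cacna1f, Trpc1 and Trpv4.

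**Figure D4:**
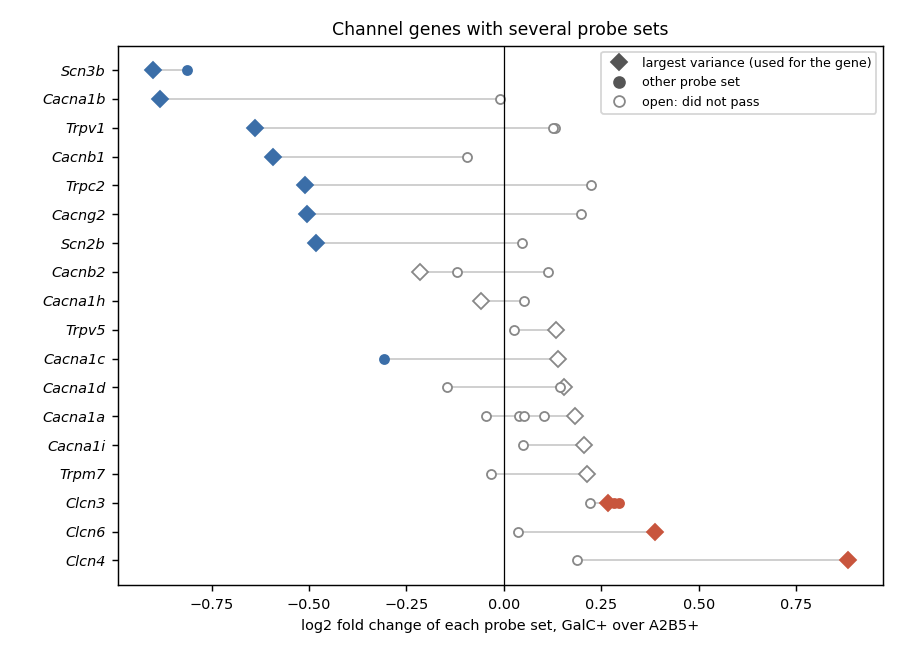
Log2 fold change of GalC+ over A2B5+ (horizontal axis) for every probe set of the 18 channel genes measured by several; diamonds mark the probe set of largest variance, which stands for the gene, filled symbols passed at an adjusted p under 0.05 over all probe sets (blue lower, red higher) and open ones did not. Scn3b and Clcn3 have probe sets close together, while those of Cacna1b, Cacng2, Trpv1 and Trpc2 lie far apart.

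Genes that anchor or regulate these channels changed in both directions, with 25 of 100 measured partners and relatives higher and 17 lower, beside 18.2% and 17.5% of all genes. Partners of sodium channels had 7 of 15 lower and 2 higher. Nalf1, an auxiliary protein of the sodium leak channel, fell most (log2 fold change -1.63 ± 0.21 SE, mean of its 2 probe sets -0.79), followed by Fgf13, a cytosolic factor that binds sodium channels (-1.46 ± 0.19). The 2 higher partners help to cluster sodium channels at nodes and initial segments. Nfasc rose by 3.14 on the log2 scale (mean of its 5 probe sets 1.44) and Ank3 by 1.70 (mean of 3 probe sets 0.99). Sptbn4, a further scaffold gene of this list, was not called higher. Oligodendrocytes make a form of Nfasc of their own, on the glial side of the paranode.

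Among 34 genes of calcium entry, stores and extrusion, 9 were higher and 5 lower. The small GTPases that restrain calcium channels through their β subunits went opposite ways, with Rrad higher (2.42 ± 0.19 SE on the log2 scale) and Rem2 lower (-1.54 ± 0.20, mean of its 2 probe sets -1.15). The calcium pump of the endoplasmic reticulum Atp2a3 was higher (1.17, mean of its 2 probe sets 0.67) and the plasma membrane pump Atp2b2 lower (-0.90, mean of its 2 probe sets -0.50). Of 16 TRP relatives and partners, 5 were higher, led by the scaffold Homer1 (1.10, mean of its 5 probe sets 0.71) and the lysosomal channel Tpcn2 (0.76), and 3 were lower, with Plcg1 (-0.63) and Homer2 (-0.54) first. Pex5l, which sets the trafficking of HCN channels, was higher (1.77 ± 0.30) and the only 1 of 7 HCN relatives and partners that passed. Other chloride channels and CLC partners had 8 of 28 higher and 2 lower. Ano4, of the anoctamin family, was 10.8-fold higher (3.43 ± 0.18) and Clic2 7.39-fold higher (2.89 ± 0.26), whereas Mlc1, a membrane protein of astrocytes (-0.36), and the kinase gene Oxsr1 (-0.25) were lower.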

How the data were processed

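RNA of 4 A2B5+ and 4 GalC+ samples was hybridised to 1-colour Affymetrix arrays. Per the submitters' processing notes RMA was used (version not given in the sources used here). What was deposited is a linear ratio to the probe set's median over the 8 arrays, as the values show. Dim probe sets could not be set aside. Ratios were log2 transformed without a pseudocount. After leaving out 57 control probe sets, 31042 remained, of which 20826 had 1 gene symbol in the platform annotation; 1 probe set shared by 2 channel genes was not used. A gene with several was represented by its most variable one, which favours large changes. The populations were compared in R 4.3.3 by limma 3.58.1 (lmFit and eBayes, two-sided, Benjamini-Hochberg over 14217 genes, threshold 0.05), tested on simulated data. The number of arrays limits the precision, with a median SE of 0.11 over the channel genes. Within a population, replicates are separate litters. Deviations from the population means correlated at 0.12 to 0.47 between arrays of the same number in both populations and at -0.26 to 0.12 between others. The labels do not say that a number marks a litter, and the number was used as a block only in an alternative. No batch is given. The channel genes, partner lists and marker lists were chosen with earlier results of these data known. Genes given with all arrays were up to 3 called higher and 3 lower of each subfamily by size, or the largest difference where none passed; from each partner or marker list, up to 2 in each direction. Alternatives were the block, quantile normalization, median centring, a trended robust prior, each gene's own spread, array weights, each array left out, other choices of probe set and stricter thresholds.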

Additional observations from a re-analysis of the deposited data

Results flagged for a closer look

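In 5 of 122 groups of 4 arrays, 1 array stood apart from the other 3 by Dixon's gap test, beside about 1 in 20 by chance. The ratio of Trpc2 on A2B5+ replicate 2 was 1.41, against 1.07 to 1.11 on the other A2B5+ arrays. Clcn7 on the same array was 0.807, against 0.990 to 1.02. On GalC+ replicate 1 Clcn5 was 1.13 (others 0.993 to 1.01), on GalC+ replicate 2 Trpc5 was 1.23 (others 0.990 to 1.02), and on GalC+ replicate 4 Trpc4ap was 0.916 (others 1.03 to 1.04). Of these genes only Trpc2 had passed the test between populations, and without A2B5+ replicate 2 its adjusted p was 0.0124 (limma).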

How the results depend on the processing

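Of the 19 called channel genes, 17 kept their call in all 8 fits that left out 1 array, the exceptions being Cacna1f and Clcn3. The count of higher genes, 6, was 3 with the probe set of smallest variance, 3 at an adjusted p under 0.01 and 2 against a fold of 1.2 (limma's treat). The count of lower genes, 13, was 8 with the probe set of smallest variance. That choice turned the sign of Cacng2 (0.20), Scn2b (0.047), Trpc2 (0.22), Trpv1 (0.13) and Cacna1c (-0.31), and, without a call in either setting, of Cacnb2 (0.11), Cacna1h (0.05) and Trpm7 (-0.03), as their probe sets disagree. Partners of the channels, 25 higher and 17 lower, had 13 higher and 8 lower against a fold of 1.2, and 11 lower at an adjusted p under 0.01. With the replicate number as a block, 5 channel genes were higher and 14 lower, Cacna1f being lost and Scn7a gained, and no other channel gene changed its call. Of the 19 called genes, 7 kept their call in all 18 alternatives. The sign of 14 genes that did not pass turned in some setting. Signal over background could not be judged, since the deposited ratios hold no level.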
